A study of Mus musculus with 59 samples.

Results

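Cbln3, Fat2, Gabra6, Cbln1, Zic1 and Tcf7l2 are 6 of the 57180 genes in the count table of a bulk RNA-seq study of mouse cortex and hippocampus. They were chosen by symbol because their counts were high in single libraries, as genes known from the cerebellum and the thalamus, which lie outside both dissected tissues. The levels in single libraries are therefore given as a description, without a test. The study addressed how 2 nuclear genes of mitochondrial proteins, the citrate carrier gene Slc25a1 and the ribosomal protein gene Mrpl40, act alone and together. Male mice had 1 of 4 genotypes, and no treatment, age or strain is given in the labels. Wild type (WT) was Mrpl40 +/+ with Slc25a1 +/+, the Slc25a1 heterozygote was Slc25a1 -/+ with 2 intact Mrpl40 alleles, the Mrpl40 heterozygote was Mrpl40 -/+ with 2 intact Slc25a1 alleles, and the double heterozygote carried both -/+ alleles. In that order, cortex had 9, 7, 7 and 7 libraries and hippocampus 8, 7, 7 and 7, from 30 animals of which 29 gave both tissues. All libraries held poly(A) RNA, and each came from 1 animal's tissue piece.

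Cbln3, Fat2 and Gabra6 are textbook genes of the cerebellar granule cell, the small excitatory neuron whose parallel fibres contact Purkinje cells. Cerebellins are secreted proteins that bridge presynaptic neurexins and postsynaptic receptors. Cbln1 is the member required at the parallel fibre synapse and is also expressed outside the cerebellum, whereas Cbln3 is secreted only together with Cbln1. Fat2 is a giant cadherin of parallel fibres. Gabra6 encodes the alpha-6 subunit of the GABA-A receptor, which is found almost only in granule cells. Zic1 is a zinc finger transcription factor of granule cells and their precursors, and also of the septum, the thalamus and the meninges. Tcf7l2 is a transcription factor of the Wnt pathway that marks thalamic and habenular neurons and, in many brain regions, newly formed oligodendrocytes.

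The genes were placed by symbol and Ensembl identifier on GRCm38 (GENCODE annotation), since the submitters' notes name a later build. All 6 are protein-coding. Cbln3 (ENSMUSG00000040380) spans chr14:55878913-55884392, Fat2 (ENSMUSG00000055333) spans chr11:55250609-55336564 and Gabra6 (ENSMUSG00000020428) spans chr11:42306437-42321072, all on the minus strand. Cbln1 (ENSMUSG00000031654) lies at chr8:87468405-87472609 and Zic1 (ENSMUSG00000032368) at chr9:91358058-91365810, both on the minus strand. Tcf7l2 (ENSMUSG00000024985) lies at chr19:55741820-55933654 on the plus strand. Exons of Zic1 overlap those of its opposite-strand neighbour Zic4 over 60 bases, so that reads there could not be told apart if counting ignored the strand, which is not stated. Exons of the other 5 genes overlap no other annotated exon.

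RefSeq promoter sequence (GRCm38.p6) was matched for 5 of the 6 genes, and Cbln1 was not matched. The 250 bases before the annotated start of Gabra6, the most cell-restricted member, are shown because nuclear factor I (NFI) proteins are known regulators of this promoter. They lie on the minus strand at chr11:42321073-42321322, and capitals mark the NFI half-site TTGGC, which this strand carries as its complement from position -49.
Gabra6: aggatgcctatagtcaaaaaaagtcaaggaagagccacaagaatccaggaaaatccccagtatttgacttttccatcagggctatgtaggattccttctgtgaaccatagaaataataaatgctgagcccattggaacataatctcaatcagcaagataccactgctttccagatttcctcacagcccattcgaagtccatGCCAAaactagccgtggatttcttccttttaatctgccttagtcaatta
TTGGC was searched on both strands and is held by 41.5% of all 32851 promoter windows of this length, so that a match is common. The windows of Cbln3, Zic1 and Tcf7l2 also held it. The table's start of Fat2 lies inside the annotated gene, and its window is not described. The E-box letters CAGCTG (13% of windows) and CAGATG (14.4%) and the TCF/LEF letters CTTTGAT (3.21%) were in none of the windows of these 4 genes.

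Library totals ranged from 21443017 to 32120906 counts, so that 3 counts, the limit a count of 0 allows, correspond to 0.0925 to 0.140 CPM. CPM values are counts relative to the library size, scaled within each tissue, and their counting intervals cover counting error only. The dissected tissues could be told apart by their markers: 10 of 10 hippocampal markers were higher in every hippocampal library than in any cortical one, and 5 of 9 neocortical markers, among them Tbr1, Cux2, Rorb and Lamp5, were higher in every cortical library than in any hippocampal one. Of the other neocortical markers, Bcl6 (log2 difference 1.58 ± 0.03, SE) and Scnn1a (1.13 ± 0.07) were called higher in hippocampus by edgeR. The Slc25a1 level went against the label in 6 animals. It was 20.7 to 27.7 CPM in animals 12, 13, 29 and 30, labelled heterozygous, where the other 10 heterozygous animals had 10.6 to 13.1 CPM. It was 11.3 to 12.6 CPM in animals 6 and 7, labelled WT, where the other 14 animals labelled with 2 intact copies had 21.6 to 26.6 CPM. Animal 12 matters most for the members, and its genotype is therefore given below as labelled.

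The granule-cell genes were low in nearly every library, with Cbln3 above the detection limit and Fat2 and Gabra6 at or near it. In cortex, Cbln3 ranged from 0.396 to 2.38 CPM with a median of 0.681 over 30 libraries, and every library had at least 10 counts. Cortical Fat2 ranged from 0 to 1.13 CPM (median 0.235), with 9 libraries at 3 counts or fewer. Cortical Gabra6 was 0 in 17 of 30 libraries and reached at most 0.681 CPM. In hippocampus without animal 12, Cbln3 ranged from 0.217 to 3.48 CPM (median 0.777), Fat2 from 0 to 1.91 CPM (median 0.231) and Gabra6 from 0 to 1.94 CPM (median 0.0372, which is about 1 read) over 28 libraries. The ranges of both tissues overlapped for each of the 3 genes.

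One library stood far outside these ranges. In the hippocampus of replicate 3 labelled Slc25a1 heterozygous (animal 12), Cbln3 was at 189.6 CPM, from 5159 counts with a 95% counting interval of 184.4 to 194.8 CPM. Fat2 was at 75.1 CPM (interval 71.9 to 78.5, 2045 counts) and Gabra6 at 67.6 CPM (interval 64.6 to 70.8, 1840 counts). Relative to the median of the other 28 hippocampal libraries, Cbln3 was 244-fold and Fat2 325-fold higher. No such ratio is given for Gabra6, whose median rests on about 1 read. In the 6 other hippocampal libraries labelled Slc25a1 heterozygous, Cbln3 ranged from 0.606 to 2.26 CPM, Fat2 from 0.0386 to 1.13 CPM and Gabra6 from 0 to 0.863 CPM.

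Cbln1 and Zic1 were high in the same library, and Tcf7l2 was not. Cbln1 was at 88.1 CPM (interval 84.7 to 91.7, 2399 counts), where the other 28 hippocampal libraries ranged from 0.980 to 5.26 CPM with a median of 2.08. Zic1 was at 146 CPM (interval 141.5 to 150.6, 3973 counts), where the others ranged from 6.14 to 15.5 CPM with a median of 9.91. These levels were 42.4-fold and 14.7-fold above the medians. Tcf7l2 was at 6.14 CPM (interval 5.24 to 7.14) in this library, 0.987-fold of the median of 6.22 CPM over the others and 17th from the top of 29. Per kilobase of exon, the level in this library was 39.0 CPM for Cbln3, 29.0 for Cbln1, 27.2 for Gabra6, 25.6 for Zic1, 5.17 for Fat2 and 0.699 for Tcf7l2.

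**Figure D1:**
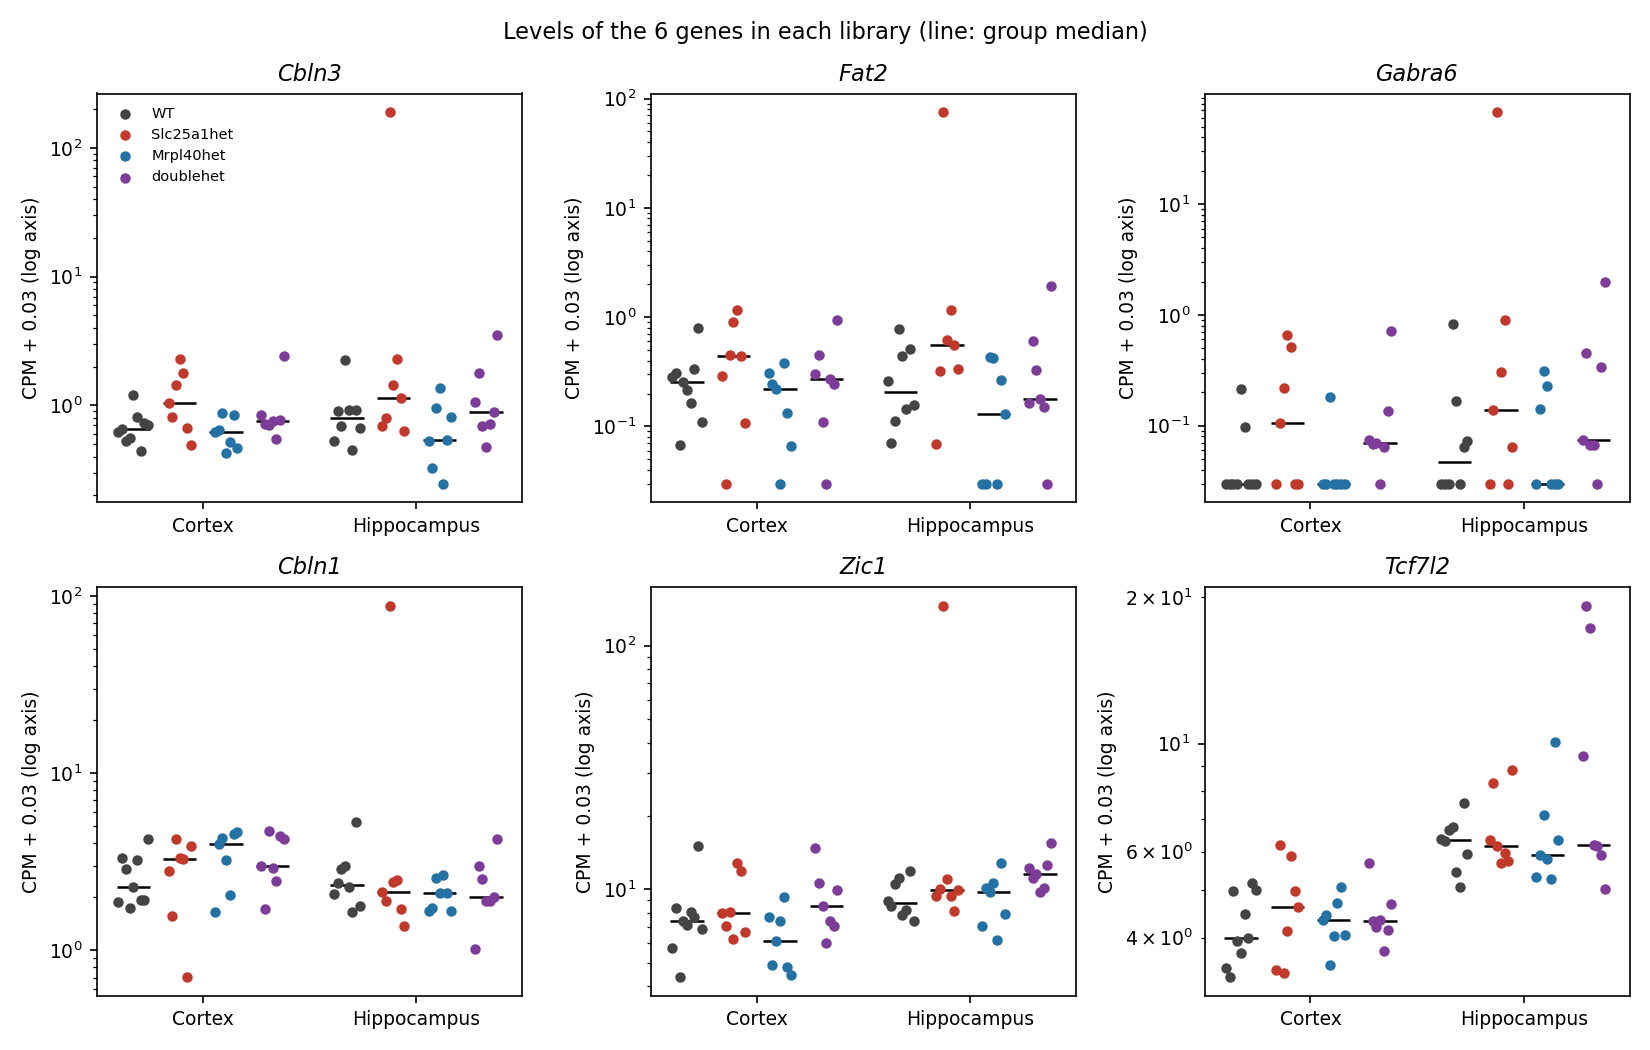
Each point is 1 library, with CPM plus 0.03 on a log axis, split by tissue and labelled genotype, and the line is the group median. A single hippocampal library labelled Slc25a1het lies far above all others for Cbln3, Fat2, Gabra6, Cbln1 and Zic1, whereas for Tcf7l2 the 2 highest points are double heterozygous hippocampal libraries at 17.2 and 19.2 CPM.

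Other markers of cerebellar cells were high in that library together with the 5 genes. From a list of 12 further granule-cell markers, 10 passed the filter on low counts, and all 10 had their highest level of 29 libraries there, against 5.18% of all 20162 genes tested. The largest of these were En2 at 16.1 CPM (30.7-fold over the median of the others) and Mab21l1 at 5.36 CPM (19.5-fold). Barhl1 and Crtam, which failed the filter, were also highest there, at 1.47 and 12.9 CPM. All 8 Purkinje-cell markers that passed were highest there too, led by Car8 at 128.4 CPM (36.5-fold) and Pcp2 at 10.7 CPM (20.9-fold). The summed level of all 12 listed granule-cell markers was 476.9 CPM in animal 12. The 6 other libraries of its labelled genotype had 187.6 to 212 CPM, and WT libraries had 180.2 to 201.8 CPM. Mrpl40 heterozygous libraries had 138.2 to 200.6 CPM and double heterozygous libraries 171.6 to 203.5 CPM. For all 10 listed Purkinje-cell markers, the summed level was 1155 CPM in animal 12. It was 618.2 to 727.8 CPM in those 6 libraries and 576.2 to 768.9 CPM over the 3 other groups. None of the markers of either list was at 0 in animal 12. Zic2, Zic4 and Gabrd of the granule-cell list belong to the families described below, and all 18 markers that passed had a median above 0 in the other hippocampal libraries.

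Most markers of other neighbouring regions were not the highest of 29 in that library, where 5.18% of all genes tested were highest. Of 11 thalamic markers, 2 were highest there, Rora at 66.8 CPM (1.86-fold) and Nexn at 4.92 CPM (2.06-fold), and of 5 habenular markers none was. Rora is also a Purkinje-cell gene. Of 11 meningeal markers 3 were highest, of 8 choroid plexus markers 1 was (Otx2 at 4.41 CPM, 24.2-fold), of 3 midbrain and hindbrain markers 1 was (Tfap2b at 9.74 CPM, 34.6-fold), and of 10 hippocampal markers none was. The thalamic marker Gbx2 was at 0, as was its median in the other libraries, where it reached at most 0.312 CPM. The median log2 ratio of the 10 hippocampal markers to the other libraries was -0.31. The same median was 0.62 for the 11 meningeal and 0.38 for the 11 thalamic markers, so that these lists were shifted upward. For the choroid plexus markers it was 0.002, for the midbrain and hindbrain markers -0.26 and for the habenular markers -0.29. Outside the lists, Patj was at 41.1 CPM there (6.45-fold). Over all 20162 genes tested, 52 lay more than 4-fold above the median of the other libraries, with 0.1 CPM added to both, which was the highest number of 29 libraries. The next had 37 and the median was 3. The part that RNA of cerebellar cells had in the levels of the 5 genes was not tested, and in bulk samples more cells of a type cannot be told apart from more RNA per cell.

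**Figure D2:**
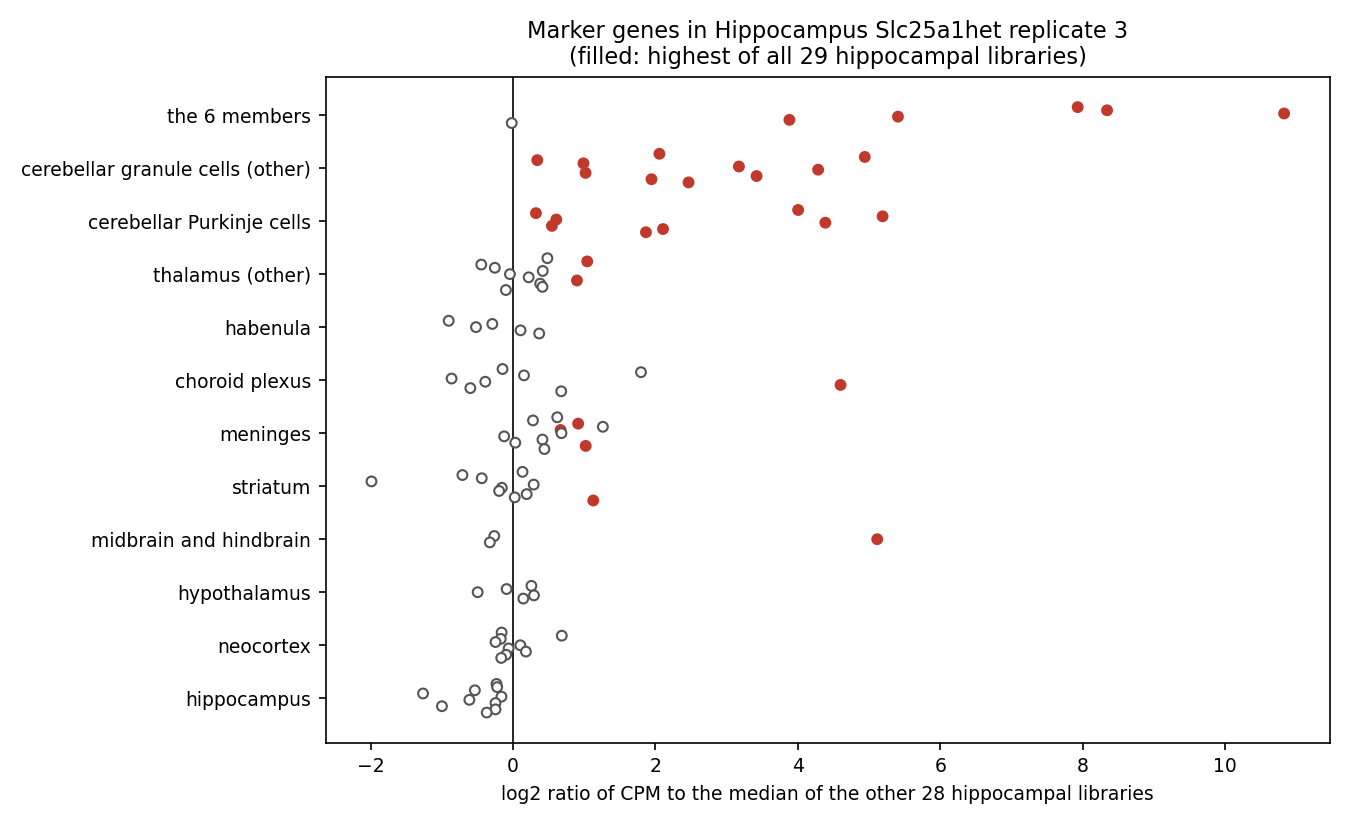
Each point is 1 gene in the hippocampus of animal 12, placed by the log2 ratio of its CPM to the median of the other 28 hippocampal libraries, and filled where that library is the highest of 29. All 10 granule-cell and all 8 Purkinje-cell markers are filled, and the hippocampal markers lie below 0 with a median of -0.31. The ratio of Gabra6 rests on a median of about 1 read.

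Within the gene families of the members, some other genes were also high in this library. Members included, 5 of 5 Zic genes and 3 of 9 cerebellins and synaptic partners were the highest of 29 there. So were 2 of 6 giant cadherins and their ligands, 1 of 12 GABA-A receptor subunits and 1 of 5 TCF/LEF genes and beta-catenin. Over all genes tested, this share was 5.18%. The 4 cerebellins differed: Cbln2 was at 6.43 CPM, 1.13-fold over the median of the others, and Cbln4 at 3.31 CPM, 0.834-fold. Grid1, which encodes a glutamate receptor of the delta type, was the lowest of 29 at 79.8 CPM (0.903-fold). The 3 neurexins were at 0.984-fold to 1.03-fold. Of 12 GABA-A receptor subunits that passed the filter, only Gabrd, the partner of the alpha-6 subunit outside synapses, was the highest of 29, at 57.9 CPM (1.27-fold), and the 12 had a median of 0.920-fold. Of the Zic genes, Zic2 (47.6 CPM, 3.85-fold), Zic4 (12.6 CPM, 5.52-fold) and Zic5 (13.0 CPM, 2.63-fold) were, like Zic1, the highest of 29. Among the giant cadherins and their ligands, Fat1 was also highest (65.5 CPM, 2.07-fold), and Fat3 was lowest (39.2 CPM, 0.803-fold).

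The cortex of animal 12 did not share the high levels. There Cbln3 was at 1.40 CPM, Fat2 at 0.420, Gabra6 at 0.187, Cbln1 at 4.20, Zic1 at 8.07 and Tcf7l2 at 3.36 CPM. Each of these values lay inside the range of the other 29 cortical libraries. Cbln3 in this cortex was the fourth highest of 30.

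A few libraries had higher granule-cell genes at a level far below that of animal 12. In the double heterozygote animal 31, the hippocampus had 3.48 CPM of Cbln3, 1.91 of Fat2 and 1.94 of Gabra6, which was the second highest value of each gene among 29. Zic1 was also second highest there, at 15.5 CPM. Fat2 was 8.25-fold and Cbln3 4.47-fold above the median of the other hippocampal libraries. The cortex of the same animal had 2.38 CPM of Cbln3 and 0.681 of Gabra6, the highest of 30 for both, and 0.907 of Fat2, the second highest. In these 2 libraries the Purkinje-cell markers Car8 and Pcp2 ranked second of 29 and first of 30. None of the 10 further granule-cell markers was highest or second highest in this hippocampus, where 2.67% of all genes tested were highest. In this cortex, 2.1% of genes tested were highest, and 3 of 8 Purkinje-cell markers and 0 of 9 granule-cell markers were.

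Animal 5 (WT), animal 13 and animal 14 (both labelled Slc25a1 heterozygous) had intermediate levels. The hippocampus of animal 5 had 2.22 CPM of Cbln3, 0.755 of Fat2 and 0.799 of Gabra6, all the highest of 8 WT libraries, and its cortex had 1.18 CPM of Cbln3 and 0.186 of Gabra6, the highest of 9. In that hippocampus, Fat2 was 3.26-fold and Cbln3 2.86-fold above the median of the other libraries, for Fat2 from 17 counts. Across all genes tested, 2.08% had their highest value in that hippocampus and 1.96% in that cortex. None of the 10 further granule-cell and 8 Purkinje-cell markers tested was highest in that hippocampus. In that cortex, none of 9 granule-cell and 8 Purkinje-cell markers was. Among WT cortices, Fat2 was highest in animal 8, not in animal 5. The cortex of animal 13 had 2.26 CPM of Cbln3 and 0.633 of Gabra6, and that of animal 14 had 1.75 and 0.480 CPM. In the hippocampus of animal 14 the values were 2.26 CPM of Cbln3 and 0.863 of Gabra6, and in that of animal 13 they were 1.42 and 0.276 CPM.

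The levels in the 2 tissues of an animal correlated for 2 of the 3 granule-cell genes. Over 29 animals, the log2 CPM of Gabra6 in cortex and hippocampus correlated with r = 0.68 and rho = 0.70 (permutation test, two-sided, adjusted over the 6 genes, p = 0.00132 and 0.0003), and without animals 12 and 31, the farthest from the median, r was 0.77. For Cbln3 r was 0.53 and rho 0.55 (permutation test, adjusted p = 0.0187 and 0.00744), and r was 0.54 without both animals. For Fat2 r was 0.33 and rho 0.34 (permutation test, adjusted p = 0.163 and 0.134). With each labelled genotype's mean subtracted, r was 0.64 for Gabra6, 0.42 for Cbln3 and 0.24 for Fat2. The relation did not pass the test for Cbln1 (r = 0.14), Zic1 (r = 0.09) or Tcf7l2 (r = 0.14). Most Gabra6 values are 0 to 3 counts, so that its relation rests on few libraries with more. Since 2 counts are added, libraries at 0 counts are ordered by library size alone, and rho partly ranks depth. The genes were chosen for high values in single libraries, and the p-values do not allow for that choice. The 6 animals highest in cortical Gabra6, from 0.153 to 0.681 CPM, had 0.276 to 67.6 CPM of it in hippocampus.

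**Figure D3:**
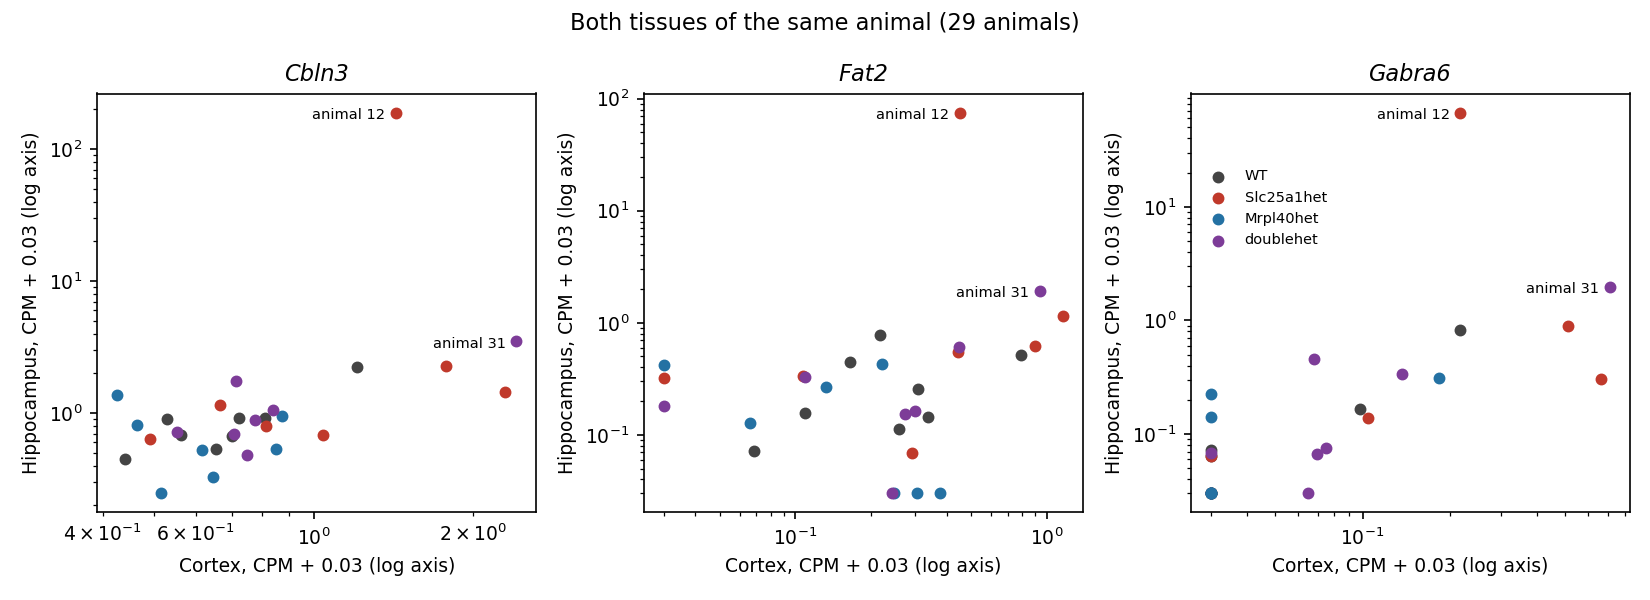
Each point is 1 animal, with cortical CPM plus 0.03 against hippocampal CPM plus 0.03, both on log axes, and colour gives the labelled genotype. Animal 31 is high in both tissues for the 3 genes, whereas animal 12 is at 189.6 CPM of Cbln3 in hippocampus and 1.40 CPM in cortex.

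Across libraries, the granule-cell genes were among the genes most like each other. Over 30 cortical libraries the gene most like Gabra6 was Cbln3 (r = 0.89), and those most like Cbln3 were Zbtb8a (r = 0.64) and Fat2 (r = 0.58), leaving out Gabra6, which failed the filter. Over 29 hippocampal libraries Cbln3 was again most like Gabra6 (r = 0.92, and 0.80 without animal 12). Among genes that passed the filter, which again left out Gabra6, Fat2 was most like Cbln3 (r = 0.92, and 0.80 without animal 12). The Purkinje-cell marker Car8 came next for Cbln3 (r = 0.92, and 0.59 without animal 12). For cortical Fat2 the most similar genes were Zfp944 (r = 0.70), Kcnk5 (r = 0.62) and Clec3b (r = 0.62), none of them a marker from the lists. These libraries share depth and scaling, and the values are given as a description.

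The proportions of the granule-cell genes could be compared in 8 libraries with at least 10 counts of Gabra6. This cut uses the denominator of both ratios, so that libraries high in Fat2 or Cbln3 but low in Gabra6 could not enter. In animal 12 the hippocampus had 1.11 Fat2 counts per Gabra6 count (95% interval 1.04 to 1.18), from 2045 and 1840 counts. In the other 7 libraries this ratio ranged from 0.944 to 2.36, and 6 of the intervals included 1.11. The exception was the cortex of animal 14, at 2.36 with an interval of 1.23 to 4.77. For Cbln3 per Gabra6 count, animal 12 had 2.80 (2.66 to 2.96), and the other 7 ranged from 1.79 to 4.09. The hippocampus of animal 31 was lowest at 1.79 (1.28 to 2.52), outside the interval of animal 12.

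Outside animal 12, Zic1 had the highest level per kilobase in both tissues. In cortex, the median over 29 libraries was 1.29 CPM per kilobase for Zic1, 0.978 for Cbln1, 0.491 for Tcf7l2, 0.139 for Cbln3, 0.0157 for Fat2 and 0 for Gabra6. Zic1 exceeded Cbln1 in 20 of 29 libraries only, and their ranges overlapped. In hippocampus, the order was Zic1 (1.74), Tcf7l2 (0.709), Cbln1 (0.685), Cbln3 (0.160), Fat2 (0.0159) and Gabra6 (0.0149) over 28 libraries. Tcf7l2 and Cbln1 changed places between the tissues, and in hippocampus Tcf7l2 exceeded Cbln1 in 17 of 28 libraries. Fat2 and Gabra6 could not be ordered in hippocampus, with Fat2 higher in 12 libraries and lower in 14.

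Cbln1 had overlapping ranges in all 4 genotypes of each tissue. In cortex it ranged from 0.674 to 4.70 CPM, with medians of 2.23 in WT, 3.22 in the Slc25a1 heterozygote, 3.95 in the Mrpl40 heterozygote and 2.97 in the double heterozygote. The lowest value, 0.674 CPM, came from the cortex of animal 15. In hippocampus the medians in the same order were 2.29, 2.09, 2.08 and 1.97 CPM. The hippocampus of the WT animal 8 was next highest after animal 12, at 5.26 CPM. That of animal 31 followed, at 4.19 CPM. In cortex, the genes whose log2 CPM was most like that of Cbln1 over 30 libraries were Ptpru (r = 0.77), Chodl (r = 0.76) and Dpysl5 (r = 0.76).

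Zic1 varied about 3-fold among cortical libraries, and its level followed that of meningeal genes. It ranged from 4.33 to 15.0 CPM, with medians of 7.40 in WT, 7.97 in the Slc25a1 heterozygote, 6.12 in the Mrpl40 heterozygote and 8.52 in the double heterozygote. The 4 highest cortical libraries were those of animal 8 (WT, 15.0 CPM), animal 25 (double heterozygote, 14.8), animal 14 (12.7) and animal 15 (11.9). The most similar genes over 30 cortical libraries were Slc6a20a (r = 0.93), a transporter gene of the meninges, the collagen gene Col1a2 (r = 0.92) and Aebp1 (r = 0.92). With the mean log2 CPM of 11 meningeal markers, cortical Zic1 correlated with r = 0.89 and rho = 0.89 (permutation test, adjusted over 4 relations, p = 4e-05, the smallest the permutations can give after adjustment), and r was 0.94 without the 2 libraries farthest from the median of the markers. In hippocampus r was 0.52 and rho 0.49 (permutation test, adjusted p = 0.00284 and 0.011), and r was 0.39 without the 2 farthest libraries. Col1a2 is itself among the 11 markers. The marker list and this relation were chosen with earlier results of these data known, and the p-values do not allow for that choice.

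In the cortex of animal 8, the library highest in Zic1, 7 of 11 meningeal markers were the highest of 30, against 3.26% of all genes tested. By the ratio to the median of the other cortices, Capn11 (10.3-fold) was first there, and the meningeal markers Ogn (3.51-fold), Slc22a6 (3.04-fold) and Aldh1a2 (3.02-fold) were among the first 10. Col1a2 was at 21.6 CPM there and Slc6a20a at 19.1 CPM. The summed level of the 11 markers was 118.6 CPM in this library, and over all cortical libraries it ranged from 20.8 to 118.6 CPM with a median of 50.2. Fat2 was also high in this cortex, at 0.759 CPM, whereas Gabra6 was at 0 and Cbln3 at 0.693 CPM. Zic2 was also highest of 30 there, at 15.3 CPM, and Zic4 was second highest, at 4.09 CPM. The part of meningeal RNA in the cortical Zic1 level was not tested.

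**Figure D4:**
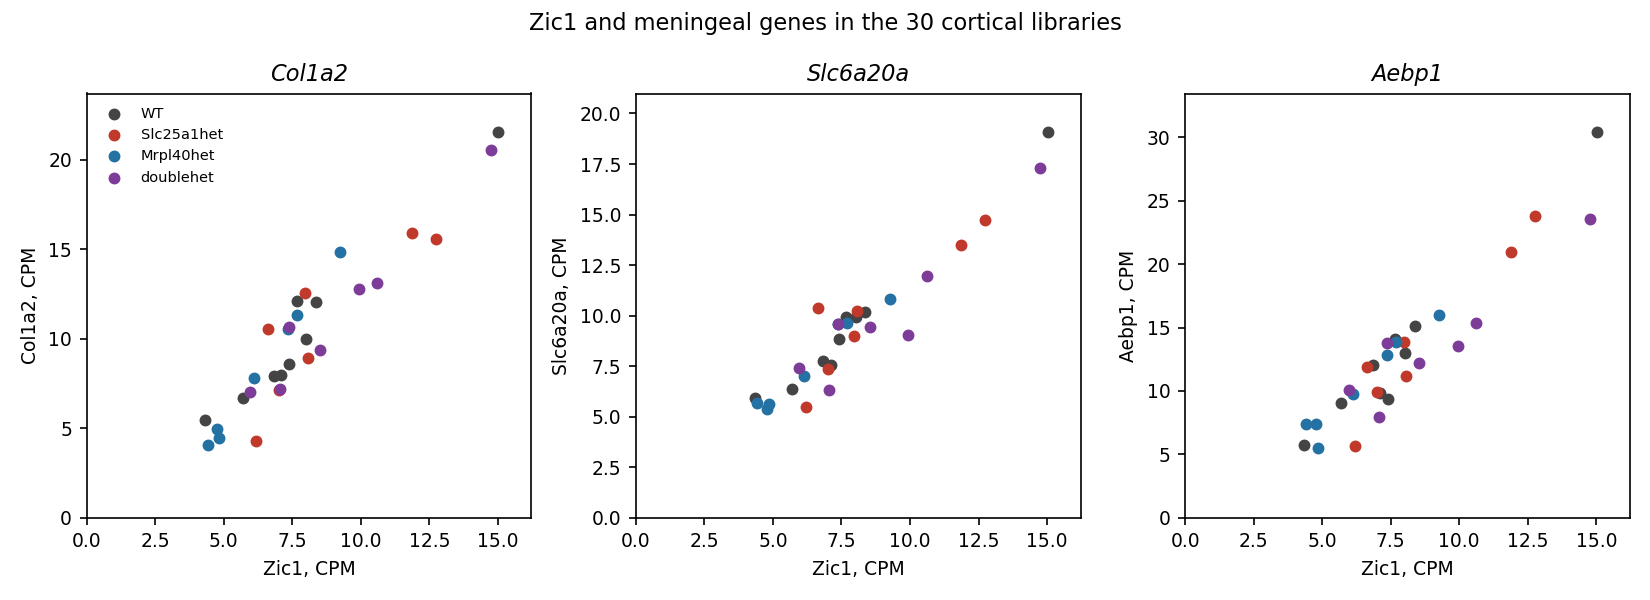
Each point is 1 of 30 cortical libraries, with the CPM of Zic1 against the CPM of Col1a2, Slc6a20a and Aebp1, coloured by labelled genotype. The libraries with 15.0 and 14.8 CPM of Zic1 are also the 2 highest in Col1a2 and Slc6a20a, and Zic1 rises with each of the 3 genes.

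The libraries highest in Tcf7l2 were not those highest in the cerebellar genes. In cortex it ranged from 3.29 to 6.15 CPM, with medians between 3.97 CPM in WT and 4.58 CPM in the Slc25a1 heterozygote. In hippocampus the medians were 6.30 in WT, 6.14 in the Slc25a1 heterozygote, 5.88 in the Mrpl40 heterozygote and 6.17 CPM in the double heterozygote. The hippocampal double heterozygous replicates 2 and 3 (animals 26 and 27) had 19.2 and 17.2 CPM, and the other 27 hippocampal libraries ranged from 5.01 to 10.0 CPM with a median of 6.14. Next came the Mrpl40 heterozygote animal 23 at 10.0 CPM and the double heterozygote animal 25 at 9.40 CPM. The cortex of animals 26 and 27 was at 4.30 and 4.18 CPM, near the cortical median of 4.30 CPM. In the hippocampus of animal 26, Cbln3 was at 1.74 CPM, Fat2 at 0.579 CPM and Gabra6 at 0.425 CPM. Each was second to animal 31 among the 7 double heterozygous hippocampal libraries.

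Of 12 listed thalamic markers 11 were tested, and none of the 11 was highest in either of the 2 libraries high in Tcf7l2. None of these, all of which passed the filter, had both libraries above all others, a pattern shown by 0.174% of genes tested (35 genes), so that none of 11 is the usual number. The vesicular glutamate transporter gene Slc17a6, a marker of thalamic relay neurons, was at 21.9 and 12.6 CPM in them, and was highest in the WT animal 8 (60.5 CPM) and the double heterozygote animal 25 (48.6 CPM). Prkcd was at 20.7 and 26.3 CPM in them, and ranged from 13.2 to 41.8 CPM over 29 libraries. The summed level of all 12 listed markers was 180.6 and 167 CPM in them and 136.8 to 232.6 CPM over all 29. It was highest in animal 25, where Tcf7l2 was at 9.40 CPM. Over the 29 hippocampal libraries, Tcf7l2 and the mean log2 CPM of the 11 markers correlated with r = 0.40 and rho = 0.54 (permutation test, adjusted over 4 relations, p = 0.0479 and 0.00526), and r fell to 0.33 without the 2 libraries farthest from the median of the markers. In cortex r was 0.25 and rho 0.24 (permutation test, adjusted p = 0.182 and 0.204). This relation, too, was chosen with earlier results of these data known, and its p-values do not allow for that choice.

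By r, Shox2 was the gene most like Tcf7l2 over the hippocampal libraries (r = 0.66, rho = 0.34). This homeobox gene, known from thalamic neurons, was at 1.85 CPM in both animals 26 and 27, from 48 and 50 counts, at 1.21 CPM in animal 23, and had a median of 0.125 CPM over 29 libraries. Klk6 (r = 0.65, rho = 0.55) and Gpr179 (r = 0.63, rho = 0.35) followed. Without the library highest in Tcf7l2, r was 0.55 for Shox2, 0.60 for Klk6 and 0.44 for Gpr179. Among these genes, Klk6 had the highest rho and the highest r without that library. Levels of Tcf7l2 were not tied to those of the granule-cell genes: its r with Cbln3 in hippocampus was -0.02, and 0.09 without animal 12. Whether RNA of thalamic cells or of newly formed oligodendrocytes had a part in the 2 high values was not tested.

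**Figure D5:**
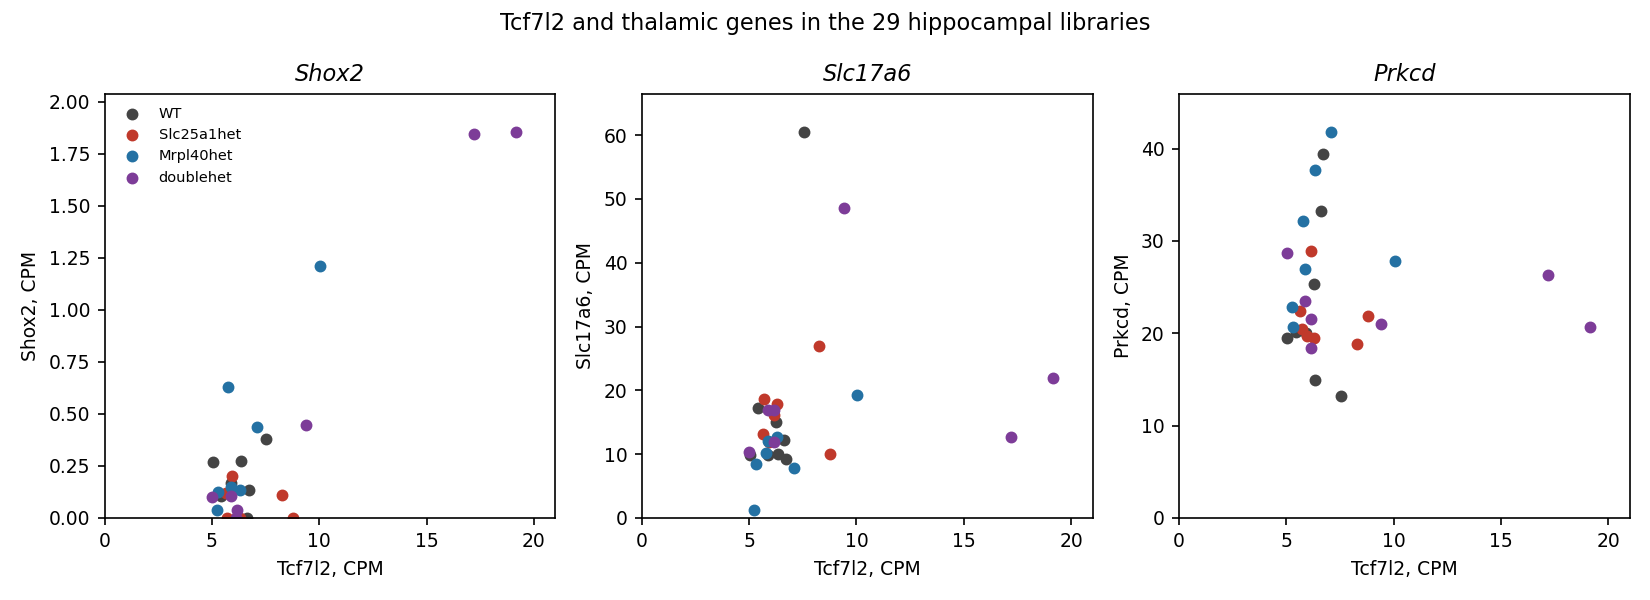
Each point is 1 of 29 hippocampal libraries, with the CPM of Tcf7l2 against the CPM of Shox2, Slc17a6 and Prkcd, coloured by labelled genotype. The libraries at 17.2 and 19.2 CPM of Tcf7l2 are the highest in Shox2 at 1.85 CPM, but not in Slc17a6 or Prkcd.

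No member passed the test in any comparison of a heterozygous genotype with WT. With edgeR's quasi-likelihood test over all genes and a false discovery rate of 0.05, 0 of the 5 members tested were called in each of the 6 comparisons and in the 2 tests of the allele interaction, and Gabra6 did not pass the filter. In cortex, 0% of 20394 genes tested were called for the Slc25a1 heterozygote, 0.0294% for the Mrpl40 heterozygote, 0.0686% for the double heterozygote and 0% for the interaction. In hippocampus the corresponding shares of 20162 genes were 0%, 0.00496%, 0.00992% and 0%. DESeq2's Wald test also called 0 members in each. At an unadjusted p under 0.05, 4 members were counted in hippocampus labelled Slc25a1 heterozygous, 1 in cortex with that label, 1 in the double heterozygous hippocampus and 0 in the others. Over all genes, 7.77%, 3.17% and 5.28% were below that threshold in these 3 comparisons. Of 32 other genes from the families of the members, edgeR also called 0 in each of the 8 comparisons, and 0 to 6 had an unadjusted p under 0.05, where 3.17% to 10.9% of all genes did.

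The differences below that unadjusted threshold shrank or turned when 1 or 2 libraries were left out. The libraries left out were those highest in these genes in their group, so that a smaller difference follows from the choice. The values show only how much of each difference came from these libraries. In hippocampus labelled Slc25a1 heterozygous against WT, the log2 fold change of Cbln3 was 4.99 ± 1.14 (SE, edgeR adjusted p = 0.359), and without animal 12 it was 0.37 ± 0.45 (adjusted p = 0.872). For Fat2 it was 5.27 ± 1.25 (edgeR adjusted p = 0.359) with the animal and 0.77 ± 0.75 without it. Cbln1 turned from 2.43 ± 0.75 to -0.43 ± 0.25, and Zic1 went from 1.65 ± 0.51 to 0.05 ± 0.13. In the double heterozygous hippocampus, Tcf7l2 was at 0.66 ± 0.24 (SE, edgeR adjusted p = 0.879), and at 0.06 ± 0.15 without animals 26 and 27. In cortex labelled Slc25a1 heterozygous, Cbln3 was at 0.83 ± 0.30 (edgeR adjusted p = 1.00), and at 0.34 ± 0.30 without animals 13 and 14.

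Between the tissues of the same animals, Tcf7l2 and Zic1 were higher in hippocampus, and Cbln1 was lower once animal 12 was left out. In edgeR's fit with the animal as a block, 79.2% of 19664 genes were called and 40.9% were called higher in hippocampus, so that a call is common here. Tcf7l2 was higher by 0.63 ± 0.09 on the log2 scale (SE, edgeR adjusted p = 1.55e-07), in 29 of 29 animals. Zic1 was higher by 0.42 ± 0.16 (edgeR adjusted p = 0.0201), in 22 of 29 animals, and by 0.30 ± 0.10 without animal 12. Cbln1 was at -0.25 ± 0.23 (edgeR adjusted p = 0.334), with hippocampus higher in 9 of 29 animals, and without animal 12 it was lower in hippocampus, at -0.42 ± 0.15 (edgeR adjusted p = 0.0108). Cbln3 was at 0.54 ± 0.34 (edgeR adjusted p = 0.141) and at 0.17 ± 0.12 without animal 12. Fat2 and Gabra6 did not pass the filter in this comparison. In WT animals alone, Zic1 was at 0.20 ± 0.12 (edgeR adjusted p = 0.173) and was not called, and Tcf7l2 was at 0.51 ± 0.09 (edgeR adjusted p = 0.000214).

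Several related genes differed more between the tissues than the members did. Over all genes tested, 79.2% were called and 40.9% were called higher in hippocampus, and the counts of calls below stand against these shares. Of the 9 genes tested in the family of cerebellins and their synaptic partners, 1 was higher and 6 were lower in hippocampus. Cbln2 was lower by -2.99 ± 0.10 and Cbln4 by -2.33 ± 0.11 on the log2 scale, whereas Grid1 was higher by 0.27 ± 0.02. Of 12 GABA-A receptor subunits, 5 were higher, with Gabra5 at 2.50 ± 0.06, and 6 were lower, with Gabra3 at -2.15 ± 0.08. Of the Zic genes, Zic4 was higher by 0.34 ± 0.15, Zic2 by 0.49 ± 0.09 and Zic5 by 0.56 ± 0.07, as was Zic1. Of 5 TCF/LEF genes and beta-catenin, 3 were higher, with Ctnnb1 at 0.57 ± 0.02 and Tcf7l1 at 0.52 ± 0.06, and Tcf7 was lower at -0.59 ± 0.06. Of 5 giant cadherins and their ligands, 3 were higher, with Fat4 at 2.09 ± 0.05, and Fat3 was lower at -0.18 ± 0.04. Of 11 meningeal markers, 6 were called higher in hippocampus, as was Zic1, and none lower, where 40.9% of all genes were called higher. Of the 11 thalamic markers, 4 were higher and 6 lower, and their median log2 difference was -0.65, opposite to Tcf7l2.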

How the data were processed

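The authors deposited unnormalized counts, 1 column per library. The submitters' processing notes name FastQC, HISAT2, featureCounts, DESeq2 and the build mm39 (GRCm39), with no versions, and the strand setting of the counting is not stated. Libraries were made with a directional kit, per the labels' protocols. Groups, animals and replicate numbers were taken from the labels. Counts were analysed in R 4.3.3 with edgeR 4.0.16: TMM normalization, the filter on low counts, robust quasi-likelihood fits per tissue over all 4 genotypes, and a fit of the tissue difference with the animal as a block, with Benjamini-Hochberg adjustment over all genes. A standard error is the log2 fold change divided by the square root of F. DESeq2 1.42.0, which replaces outlying counts in groups of 7 or more, was an alternative. The pipeline was tested on simulated data. Correlations took log2 CPM with 2 counts added. Their permutation tests took 100000 draws and do not allow for the choice of the genes. Animals pair the tissues, per the labels. The members, the marker lists and the tests were chosen with earlier results of these data known. Named genes were the members, the 3 genes most like a member by Pearson r, list genes highest in a library that stood apart, and the 10 genes with the largest ratio there, of which only the cortex of animal 8 is described, since animal 12 itself lifts members over the mean of 1 CPM that the ranking asks for in hippocampus. Others were named after their values were seen. Figures used Python 3.11.15 and matplotlib 3.10.9. Library totals ranged from 21443017 to 32120906 counts, and P-values measure the spread between animals. Alternatives covered scaling, filtering, DESeq2, the replicate block and libraries or animals left out. A few list genes are not reported here.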

Additional observations from a re-analysis of the deposited data

Results flagged for a closer look

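Within each group of 7 to 9 libraries, 1 library stood apart by Dixon's criterion at 95% in 19 of 48 combinations of gene, tissue and genotype, always on the high side. Chance flags about 1 in 20 groups of genes that were not chosen for it, if their values are normally distributed. The CPM values of Fat2 and Gabra6 lie near 0 and are skewed, so that this rate does not apply to them. The members were chosen because they were high in single libraries, so that these counts describe the values and test nothing. The hippocampus of animal 12 did so for Cbln3 (189.6 CPM), Fat2 (75.1), Gabra6 (67.6), Cbln1 (88.1) and Zic1 (146). The hippocampus of animal 31 did so for Cbln3 (3.48 CPM), Fat2 (1.91) and Gabra6 (1.94), and its cortex for Cbln3 (2.38) and Gabra6 (0.681). The hippocampus of animal 5 did so for Cbln3 (2.22 CPM) and Gabra6 (0.799), and its cortex for Cbln3 (1.18) and Gabra6 (0.186). The cortex of animal 8 stood apart for Fat2 (0.759 CPM) and Zic1 (15.0), and its hippocampus for Cbln1 (5.26). The cortex of animal 20 stood apart for Gabra6 (0.153 CPM), from 4 counts, where the 6 other Mrpl40 heterozygous cortices were at 0, so that any count would stand apart, and the hippocampus of animal 23 for Tcf7l2 (10.0). The 2 hippocampal libraries highest in Tcf7l2 are in the same group and lie close together, so that neither stood apart by this criterion.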

How the results depend on the processing

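In all 58 combinations of a genotype comparison or interaction with another setting, 0 members were called. Library levels moved by at most 3.17% under 2 other scalings. Cbln1 in hippocampus labelled Slc25a1 heterozygous turned negative with DESeq2 (-0.41, which replaces outlying counts), without the 6 libraries that stood apart (-0.40), without the 6 animals against their Slc25a1 label (-0.62) and without animal 12 (-0.43). Zic1 there was -0.060 without those 6 animals. Between tissues, the fit with genotype and no animal block gave Cbln3 at 1.92 (edgeR adjusted p = 0.00309) and reversed Cbln1 to 0.31, and in WT animals only 1 member was called in place of 2. Cbln1 was also called without animals with a library that stood apart (-0.55) and without animals 12, 26 and 27 (-0.44), settings of which those naming animals were chosen after seeing the data. With the replicate number as a block, 0 members were called, Cbln3 was at 2.71 in hippocampus labelled Slc25a1 heterozygous, and same-numbered libraries deviated with a median correlation of 0.02 in each tissue (range -0.13 to 0.18), so that the numbers do not pair them. Depth limits Gabra6, with 3 or fewer counts in 24 of 30 cortical and 19 of 29 hippocampal libraries. Over all genes, the 14 called in the double heterozygous cortex became 112 with DESeq2, 22 without the filter on low counts, 8 with the replicate block, 2 without the 6 animals against their label and 0 without the 6 libraries that stood apart, and in the 7 other genotype tests the number ranged from 0 to 23 over the settings tried.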
